A study of Mus musculus with 82 samples.

Results

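The nuclear tRNA genes of the mouse were examined as targets of RNA polymerase III in nascent RNA from mouse embryonic stem cells. Members were all genes of biotype tRNA on the chromosomes of the GRCm38 RefSeq annotation. There were 403 such genes among 445 annotated tRNA genes, since 22 mitochondrial genes and 20 genes on unplaced scaffolds were left out. The whole annotation used here held 28920 curated gene spans, small RNA genes and tRNA genes. A read was assigned to a tRNA gene when it ran in the sense direction and its RNA 3′ end lay between 20 bp upstream and 100 bp downstream of the gene. No measured level entered the choice of genes.

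All samples came from V6.5 cells, an untreated mouse embryonic stem cell line, and no genotype or drug was compared. The groups differ by assay. In each assay, nuclei extended their nascent RNA by 1 modified nucleotide that carries a propargyl group, and copper-catalysed click chemistry then joined that 3′ end to a DNA oligonucleotide, which carries a barcode for each well in scGRO–seq and inAGTuC, while all entries of an AGTuC library carry 1 barcode. AGTuC is the bulk form, in which a high concentration of the detergent sarkosyl opens the nuclei during the run-on reaction. inAGTuC keeps nuclei intact, in small pools of nuclei per well. scGRO–seq keeps nuclei intact and sorts a single nucleus into each well. The comparison used 10 batches of scGRO–seq with 53 libraries, of which 35 held the 2525 kept cells, 4 inAGTuC libraries and 2 AGTuC libraries. Both AGTuC libraries carry the same batch name, and nothing says that libraries of an assay came from separate cultures, so the p-values measure the spread between these samples, which may be technical. Assay, detergent and read length change together between AGTuC and the other assays and cannot be told apart.

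RNA polymerase III transcribes tRNA genes from promoter elements that lie inside the gene, the A box and the B box. The factor TFIIIC binds these boxes and places TFIIIB in front of the gene, and the polymerase then stops at a short run of T on the coding strand beyond the gene. The primary transcript carries a short leader and a trailer, which RNase P and RNase Z remove, and the enzyme Trnt1 then adds the bases C, C and A to the trimmed 3′ end of every mature tRNA. A gene's annotation therefore ends before the CCA, and trailer bases mark RNA that has not yet been trimmed, unless they match the added CCA.

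The 403 genes lay on 19 chromosomes, with 105 on chromosome 13 and 53 on chromosome 6. Their length was 70 to 107 bp with a median of 72 bp, and 22 had 2 exons. Only 221 different gene sequences were found, 238 genes had an identical copy elsewhere, and the largest group of identical genes held 29 members. The B box motif GTTCNANNCC was found in 331 genes (82.1%) on the RNA strand and in 6 genes (1.49%) on the other strand. Windows of the same length 1 kb upstream held it on the RNA strand in 1.74% of cases and windows 1 kb downstream in 1.99%. A run of at least 4 T followed 371 genes within 100 bp. Its first base lay a median of 9 bp past the gene end, and within 20 bp for 332 genes. A match of the B box motif or of a T run describes the letters only.

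The sequences of 6 genes on which the results turn are printed from GRCm38, 5′ to 3′ on the RNA strand, from 8 bases before the gene to 22 bases after it. Capitals mark the match to the B box motif and the first run of at least 4 T after the gene. n-TRccg2 (chr17:23550263-23550335, minus strand) had most scGRO–seq reads, and n-TPtgg8 (chr7:98815415-98815486, plus strand) has a single C after its end. n-TScga2 (chr10:128458464-128458545, minus strand) had most AGTuC reads. n-TVcac2 (chr13:23412077-23412149, minus strand) was high in 1 batch. n-TPtgg6 (chr17:23546476-23546547, minus strand) had nearly all its scGRO–seq ends inside the gene, and n-TAtgc10 (chr5:125404250-125404321, minus strand) has CCA as the first bases after its end.
n-TRccg2: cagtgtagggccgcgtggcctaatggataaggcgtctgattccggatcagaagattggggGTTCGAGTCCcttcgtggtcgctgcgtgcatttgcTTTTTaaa
n-TPtgg8: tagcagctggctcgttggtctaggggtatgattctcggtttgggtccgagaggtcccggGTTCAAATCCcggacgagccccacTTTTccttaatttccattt
n-TScga2: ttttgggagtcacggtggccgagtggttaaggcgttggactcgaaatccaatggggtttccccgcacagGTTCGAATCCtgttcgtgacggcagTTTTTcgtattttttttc
n-TVcac2: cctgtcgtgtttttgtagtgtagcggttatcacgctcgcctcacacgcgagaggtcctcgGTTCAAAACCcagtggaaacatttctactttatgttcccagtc
n-TPtgg6: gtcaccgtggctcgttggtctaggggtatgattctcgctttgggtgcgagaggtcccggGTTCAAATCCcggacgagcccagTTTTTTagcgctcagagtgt
n-TAtgc10: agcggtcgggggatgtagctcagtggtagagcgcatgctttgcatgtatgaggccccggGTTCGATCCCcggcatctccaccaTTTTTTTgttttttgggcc

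A unique molecular identifier (UMI) marks each captured RNA molecule, and levels are given as UPM, the UMIs of a gene or window per 1000000 UMIs of the sample. The samples held between 223119 and 4928371 UMIs. The 10 embryonic stem cell markers checked, Pou5f1 and Nanog among them, had UMIs in every assay, with summed levels of 266 to 1192 UPM in scGRO–seq, 376 to 789 in inAGTuC and 1388 to 1438 in AGTuC. The 4 markers of feeder fibroblasts summed to 5.51 to 29.7, 6.87 to 14.4 and 6.27 to 8.20 UPM, and Col1a2 and Col3a1 had no AGTuC UMI. The 6 markers of differentiated lineages summed to 13.8 to 58.3, 31.6 to 60.9 and 72.1 to 78.6 UPM, and T had no AGTuC UMI. The part of these cell types in the tRNA levels was not tested.

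Libraries shared molecules. Barcodes mark wells and were used again in other libraries, and 226 of the 255 barcodes of kept cells occurred in more than 1 library. Entries with the same position, strand, barcode and UMI in more than 1 library made up 28.9% of the entries in the 53 scGRO–seq libraries, with 67.6% in the highest library, 16.8% in inAGTuC and 0.33% in AGTuC. Such molecules were left out of all values below. With them kept, the mean tRNA level on the log2 scale was 1.60 lower in inAGTuC and 1.45 lower in AGTuC than in scGRO–seq (exact permutation, adjusted p = 0.0455 for each), sense exceeded antisense with a mean of 4.43 on the log2 scale, a UMI was found for 93.05%, 78.2% and 68.7% of the genes in scGRO–seq, inAGTuC and AGTuC, and the share of ends past the gene was 23.7 percentage points higher in AGTuC than in scGRO–seq.

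The tRNA genes drew sense reads in every sample, at levels that spread widely between batches. In scGRO–seq the level was 887 UPM in batch Exp156, 843 in Exp160, 3187 in Exp208, 1914 in Exp211, 1212 in Exp236, 722 in Exp246, 1286 in Exp260, 816 in Exp260b, 1549 in Exp263 and 3843 in Exp264a. In inAGTuC it was 1383 UPM in Exp208_c12, 918 in Exp208_c14, 63.6 in Exp234_c11 and 517 in Exp261_c16, and in AGTuC it was 470 in Exp125c_c01 and 592 in Exp125c_c02. These levels sum over nuclei, so fewer nuclei with RNA of a gene and less RNA per nucleus cannot be told apart in them. They also count ends that can be those of trimmed RNA, described below. The levels therefore need not measure nascent RNA alone, and the part of trimmed RNA in them was not tested. Both AGTuC libraries lay below the lowest scGRO–seq batch, while the inAGTuC libraries reached from far below all other samples into the scGRO–seq range. The counts behind these levels were 16964 sense UMIs in scGRO–seq, 2461 in inAGTuC and 3862 in AGTuC.

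On the log2 scale the mean level was 1.61 lower in inAGTuC than in scGRO–seq (two-sided exact permutation test, p = 0.03996, adjusted over 3 pairs of assays p = 0.06818). AGTuC was 1.39 lower than scGRO–seq on the same scale (exact permutation p = 0.04545, adjusted p = 0.06818). Neither passed the threshold of 0.05 after adjustment. Both passed it, without a change of direction, when all barcodes, all deposited reads or all cells of at least 1000 UMIs were used. These permutations, like all others between assays here, take each AGTuC and inAGTuC library as independent. Both AGTuC libraries carry the same batch name, and so do Exp208_c12 and Exp208_c14. A fit with the batch as a random block, given below, estimated a correlation of 0.602 within batches, so the p-values can be too small. AGTuC and inAGTuC differed by 0.22 on the log2 scale (exact permutation p = 0.9333), in a design of 2 against 4 libraries whose smallest possible p is 0.06667. Without the inAGTuC library Exp234_c11 this last difference turned to -0.72, and that of inAGTuC from scGRO–seq shrank to -0.67. With all scGRO–seq batches that had kept cells in place of the 10, the differences of inAGTuC and AGTuC from scGRO–seq were -1.13 and -0.91 (exact permutation, adjusted p = 0.463 for each).

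Within the batches that held both intact-nuclei assays, the order was the same or nearly level. In Exp208 the scGRO–seq cells had 3187 UPM in tRNA genes, against 1383 and 918 in its inAGTuC libraries. In Exp261, whose scGRO–seq cells are not among the 10 batches, the values were 1013 in scGRO–seq and 517 in inAGTuC. In Exp234 they were 66.1, from 5 UMIs over all barcodes, and 63.6. Paired by batch, the difference of inAGTuC from scGRO–seq was -0.84 ± 0.73 on the log2 scale (SD, n = 3 batches), and -8.21 ± 8.12 percentage points in the share of ends past the gene that is described below. All 3 batches had the same direction for each measure, and the exact sign-flip p was 0.25, the smallest that 3 batches allow.

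**Figure D1:**
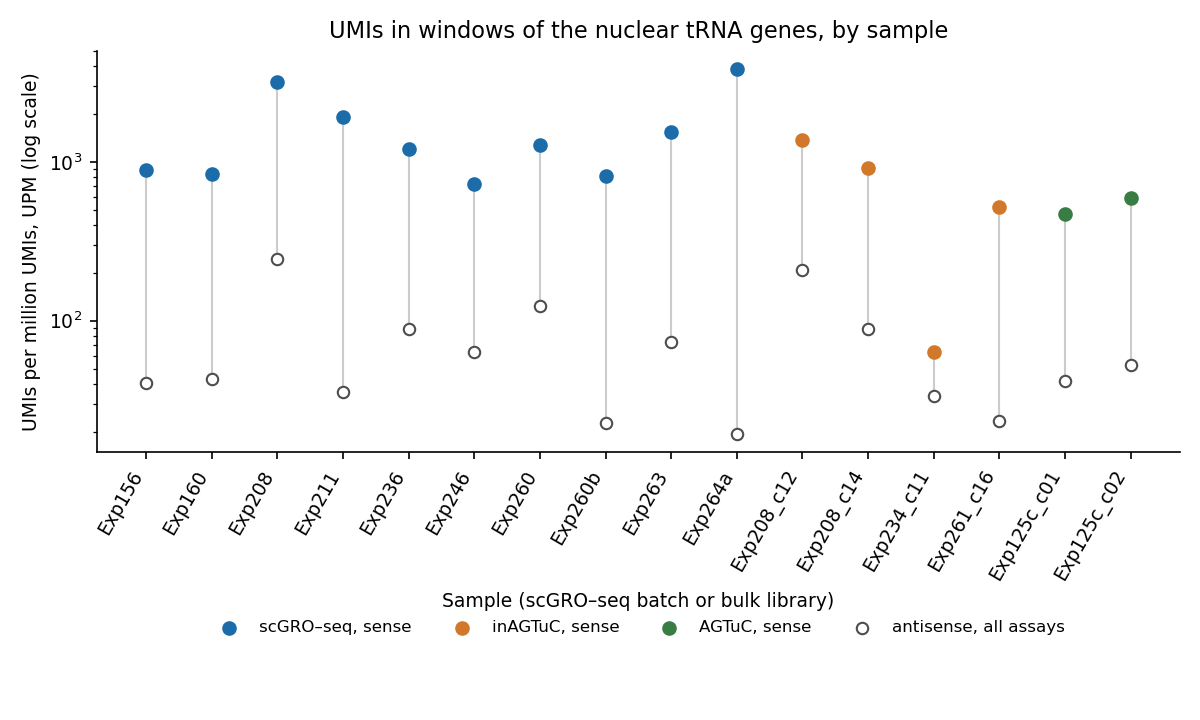
Levels (UPM) of sense (filled points) and antisense UMIs (open points) in the windows of the 403 nuclear tRNA genes, for 10 scGRO–seq batches, 4 inAGTuC libraries and 2 AGTuC libraries. The y axis is logarithmic, grey lines join both strands of a sample, and the gap between strands is smallest in Exp234_c11, at 63.6 against 33.5 UPM.

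The reads kept to the strand and the place of the genes. Sense UMIs exceeded antisense UMIs in the same windows by 10.4 to 199 times in the 10 scGRO–seq batches, with a geometric mean of 24.3 (two-sided exact sign-flip test, p = 0.001953, the smallest that 10 batches allow). Exp264a gave the highest ratio, 3580 sense to 18 antisense UMIs. Against same-strand windows of equal length 1 kb upstream of 359 genes the geometric mean ratio was 71.3, and against those 1 kb downstream of 357 genes it was 126 (exact sign-flip p = 0.001953 for each). In inAGTuC the ratio to antisense was 6.63, 10.3, 1.90 and 22.1, and in AGTuC it was 11.3 in both libraries. The ratio to windows 1 kb upstream was lower in AGTuC, at 8.81 and 10.6, than in each of the 10 scGRO–seq batches, where it was 39 to 161. In inAGTuC it was 36.8, 26, 2.63 and 26.4, also below every scGRO–seq batch. A difference between assays in these ratios was not tested.

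Most of the tRNA genes were seen at least once. A sense UMI was found for 369 of 403 genes in scGRO–seq (91.6%, 95% Wilson interval 88.4 to 93.9), for 309 in inAGTuC (76.7%, 72.3 to 80.5) and for 277 in AGTuC (68.7%, 64.1 to 73.1). An antisense UMI was found for 56.8%, 33% and 24.6% of the same windows. Windows 1 kb upstream held a same-strand UMI in 20.3%, 13.1% and 18.1% of cases, and windows 1 kb downstream in 19.3%, 14.01% and 15.7%. These shares follow the number of UMIs as well as the genes, so no test between assays was made, and the intervals cover counting error only. In single cells, 78.6% to 99.6% of the kept cells of a batch had at least 1 sense tRNA UMI, against 6.27% to 45.5% with an antisense UMI in the same windows.

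UMIs were spread unevenly over the genes. It took 33 genes to make up 50% of the scGRO–seq tRNA UMIs, 38 in inAGTuC and 49 in AGTuC. The 10 genes with most UMIs held 24.4%, 23.1% and 16.2% of them. The median gene had 15 UMIs in scGRO–seq, 3 in inAGTuC and 4 in AGTuC.

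The RNA 3′ ends lay inside the gene and past its end, in shares that varied between samples. Positions are counted from the last annotated base of the gene, which is 0, so that +1 is the first base of the trailer. Where the next bases match C, CC or CCA, an end at +1 to +3 can be that of trimmed RNA, as described below. The share of ends past the gene therefore does not measure untrimmed RNA alone. The share of sense ends past the gene end was 33.8% in Exp156, 24.6% in Exp160, 35.3% in Exp208, 8.02% in Exp211, 36.6% in Exp236, 27.7% in Exp246, 39.2% in Exp260, 58.5% in Exp260b, 47.1% in Exp263 and 46.98% in Exp264a. It was 20.6%, 16.4%, 19.4% and 62.1% in the inAGTuC libraries Exp208_c12, Exp208_c14, Exp234_c11 and Exp261_c16, and 58.1% and 59.7% in AGTuC. The means were 35.8% ± 13.9 (SD, n = 10), 29.6% ± 21.7 (SD, n = 4) and 58.9% ± 1.13 (SD, n = 2). The difference of AGTuC from scGRO–seq was 23.1 percentage points (exact permutation p = 0.06061, adjusted p = 0.1818). AGTuC differed from inAGTuC by 29.2 points (exact permutation p = 0.3333, adjusted p = 0.5) and inAGTuC from scGRO–seq by -6.15 points (exact permutation p = 0.5275). None of the 3 passed the test, and Exp260b and Exp261_c16 lay with the AGTuC libraries. With reads of mapping quality of at least 10 alone, AGTuC and scGRO–seq differed by 28.7 points, with an adjusted exact permutation p of 0.0455. Here too libraries of a batch were taken as independent, so the p-value can be too small.

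The distance of ends past the gene varied between samples, and the assays overlapped. Ends at +1 to +3 that can be those of trimmed RNA are among them. Among ends past the gene, the median distance was 1 to 15 bp in the scGRO–seq batches, 4, 3, 53.5 and 7 bp in the inAGTuC libraries and 12 and 13 bp in AGTuC. In Exp234_c11 the median rests on 18 UMIs. The tRNA reads themselves were longer in AGTuC, with a median of 68 and 69 bp, than in scGRO–seq (28 to 55 bp) and inAGTuC (35 to 44 bp), and the part of read length in the position of the ends was not tested.

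The profile of single bases showed 2 kinds of ends. In scGRO–seq, 13.7% ± 5.52 (SD, n = 10) of the sense ends lay on the last annotated base and 11.3% ± 5.16 on +1. In inAGTuC these shares were 8.70% ± 6.59 and 6.11% ± 5.07 (SD, n = 4). In AGTuC only 0.17% ± 0.11 and 0.53% ± 0.05 lay there (SD, n = 2), and its highest single base was +12, with 6.48% ± 1.08 of ends. The last annotated base is where a trimmed tRNA ends before its CCA, and the first T runs start a median of 9 bp further on.

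Summed over classes chosen after this profile was seen, and therefore without a test, ends from 0 to +3 made up 12.4% to 46.7% of sense ends in the scGRO–seq batches. In inAGTuC they made up 16.9%, 22.2%, 0% of 93 and 32.6%, and in AGTuC 1.43% and 2.35%. Ends from +4 to +20 made up 1.40% to 32.4% in scGRO–seq, 3.85% to 28.5% in inAGTuC and 44.1% and 41.7% in AGTuC. The AGTuC libraries lay outside the range of all scGRO–seq batches in both classes, below in the first and above in the second.

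**Figure D2:**
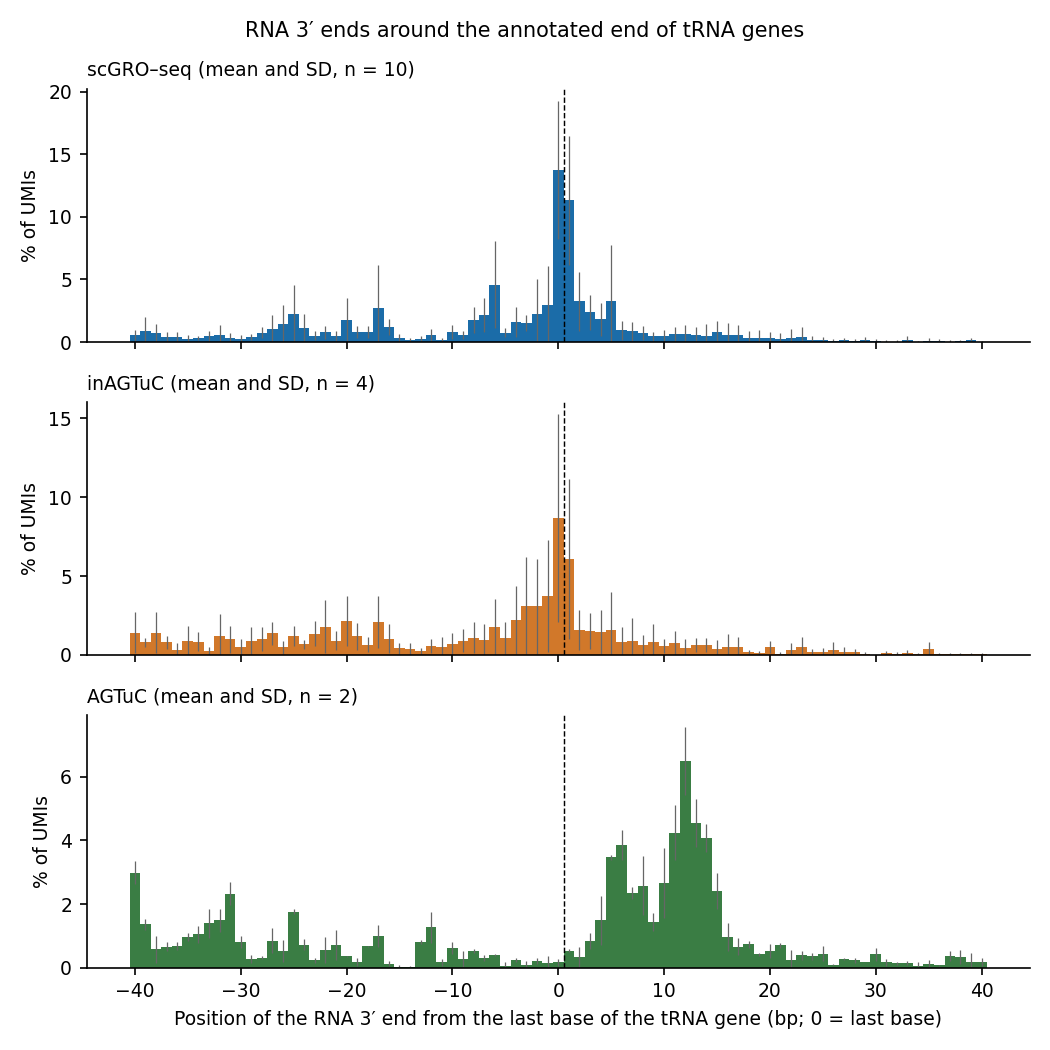
Share of sense tRNA 3′ ends (percent, y axis) by distance from the last annotated base (bp, x axis) for each assay. Bars are means over samples, with the SD as error bars. scGRO–seq and inAGTuC peak at 0 and +1, at 13.7% and 11.3% in scGRO–seq, while AGTuC has under 1% there and its highest value, 6.48%, at +12.

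The ends from 0 to +3 were set beside the genomic bases that match CCA. A mature tRNA ends in CCA whether or not the genome carries these bases, and an aligner that clips unmatched end bases places such an end at the last base that matches the genome, after C, CC or CCA where the gene is followed by them. The study's methods name Bowtie2's very-sensitive preset, which by default aligns reads end to end without clipping, whereas a mapping quality of 44, the highest in the files, belongs to its local mode, which clips. The mode used was not settled here. The gene n-TAtgc10, printed above, carries all 3 bases and n-TPtgg8 carries the first. Of 2988 scGRO–seq ends from 0 to +3 in genes whose next base was not C, 2435 (81.5%) lay at 0. In genes that match the first base, 1853 of 2135 (86.8%) lay at +1. In the 2 genes that match the first and second base alone, 102 of 141 (72.3%) lay at +2, and in the 6 genes that match all of CCA, 235 of 386 (60.9%) lay at +3. The commonest end thus moved with the number of matching bases, from 0 to +3, but the last steps rest on single genes. All 141 ends of the class of 2 matching bases came from n-TNgtt9, an asparagine gene, and 366 of the 386 ends of the class of 3 came from n-TAtgc10. In the other 5 genes of that class 14 of 20 ends lay at +3.

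In inAGTuC the counts were smaller, with 249 of 322 ends at 0, 156 of 192 at +1, 8 of 12 at +2 and 13 of 32 at +3. By batch, 56.7% to 89.2% of the scGRO–seq ends from 0 to +3 lay exactly where the match to CCA stops. In inAGTuC the values were 64.4%, 74.3% and 84.9%, with no such end in Exp234_c11. AGTuC had only 81 ends from 0 to +3 in all, of which 5 of 15 and 18 of 66 lay at the match. Which base follows the gene shows the same thing per sample. Where it is C, 30.9% ± 7.39 of scGRO–seq ends lay at +1, and where it is A, G or T, 1.50% ± 1.56 (SD, n = 10 each). All of these are descriptions, since the classes were set after the profile was seen.

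**Figure D3:**
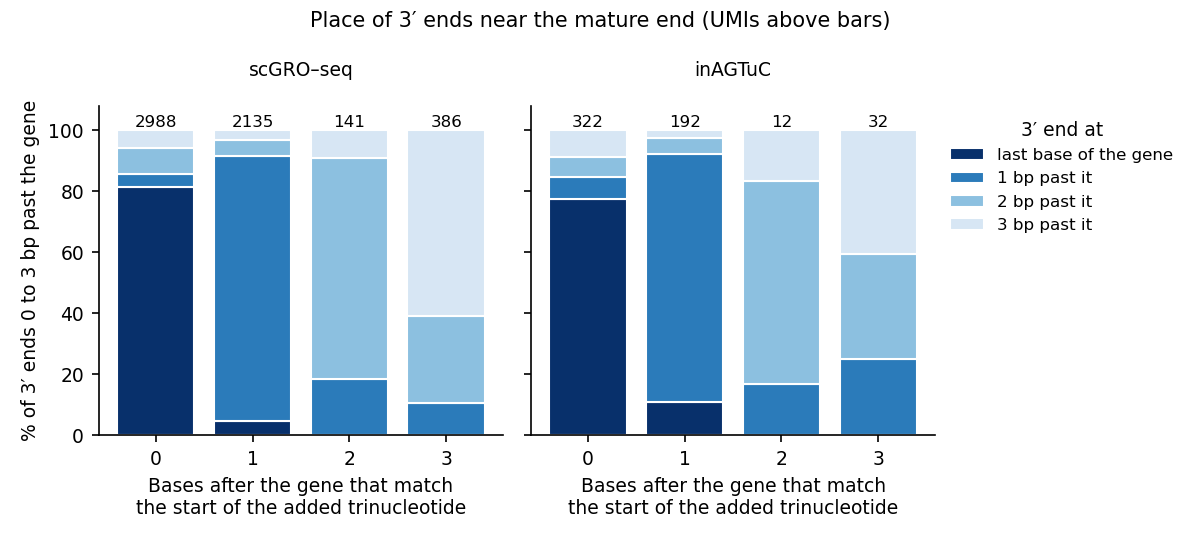
Share of tRNA 3′ ends from 0 to +3 (y axis, percent) at each position (colours, bp past the last annotated base), in scGRO–seq and inAGTuC. The x axis gives how many genomic bases after the gene match C, CC or CCA. The largest part moves from 0 to +3 with the number of matching bases in both assays (81.5%, 86.8%, 72.3% and 60.9% at the match in scGRO–seq). The classes of 2 and 3 matching bases are almost wholly n-TNgtt9 and n-TAtgc10. AGTuC, with only 81 such ends, is not drawn.

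Ends in the T run made up a larger share of the AGTuC reads than in any other sample, while ends beyond it overlapped between assays. Over the 371 genes with a run of at least 4 T, 18.04% ± 1.87 of AGTuC ends lay in the run and 18.8% ± 2.03 after it (SD, n = 2). In scGRO–seq 3.97% ± 3.45 lay in the run and 5.70% ± 6.91 after it (SD, n = 10), and in inAGTuC 3.37% ± 4.50 and 8.77% ± 6.94 (SD, n = 4). Between gene end and run lay 27% ± 8.71 in scGRO–seq, 17.4% ± 14.5 in inAGTuC and 21.7% ± 0.74 in AGTuC. The remainder, in or before the gene, was 63.3% ± 12.9, 70.5% ± 21.5 and 41.5% ± 0.90. The share in the run reached 16.7% and 19.4% in AGTuC, above the highest scGRO–seq batch at 12.7% and the highest inAGTuC library at 10.1%. The share after the run was 17.3% and 20.2% in AGTuC, and 1.00% to 24.5% in the scGRO–seq batches. With runs of at least 5 T, found after 198 genes, the share of AGTuC ends in the run was 14.1% and that after it 7.26%, where the highest scGRO–seq batch had 13.4% and 18.3%.

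Single genes showed both patterns. In n-TScga2, a serine tRNA gene whose T run starts at +5, the commonest AGTuC end was +6 with 18 of 107 UMIs, and the commonest scGRO–seq end was 0 with 58 of 230. In n-TSaga1, another serine tRNA gene (chr13:21937094-21937175, minus strand), whose run also starts at +5, 22 of 61 AGTuC UMIs ended at +7. n-TLtag1, a leucine tRNA gene (chr7:120835479-120835560, minus strand) with its run at +11, had 16 of 60 AGTuC UMIs at +12 and 121 of 287 scGRO–seq UMIs at +1. n-TAcgc8, an alanine tRNA gene (chr2:57182078-57182149, plus strand) inside 4930555B11Rik, had 20 of 55 AGTuC UMIs at +5, before its run at +17.

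The far side of the read lies towards the 5′ end of the RNA and was compared with the gene start, without a test. Among reads whose far side lay within 10 bp of the gene start, 72.4% and 67.6% began 8 to 2 bp before the gene in AGTuC, where the leader lies. In scGRO–seq this share was 4.44% in Exp211 and 12.5% to 27.7% in the other batches, with a median of 20.8% over all. In inAGTuC it was 35.9%, 35.4%, 45% and 25.97%. A start at the last base before the gene or at its first base was found for 7.06% to 52.3% in scGRO–seq, 9.09% to 38.6% in inAGTuC and 4.16% and 5.26% in AGTuC. The highest single base was -4 in AGTuC, with 6.96% ± 0.80 of far sides (SD, n = 2). In scGRO–seq the first base of the gene held 4.85% ± 8.87 of far sides (SD, n = 10), of which the batch Exp211, with its many n-TVcac2 reads, had 29.9%. Without Exp211 the mean there was 2.07%, below the 3.97% at 28 bp inside the gene. Since reads are of limited length, a far side need not be the 5′ end of the RNA.

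**Figure D4:**
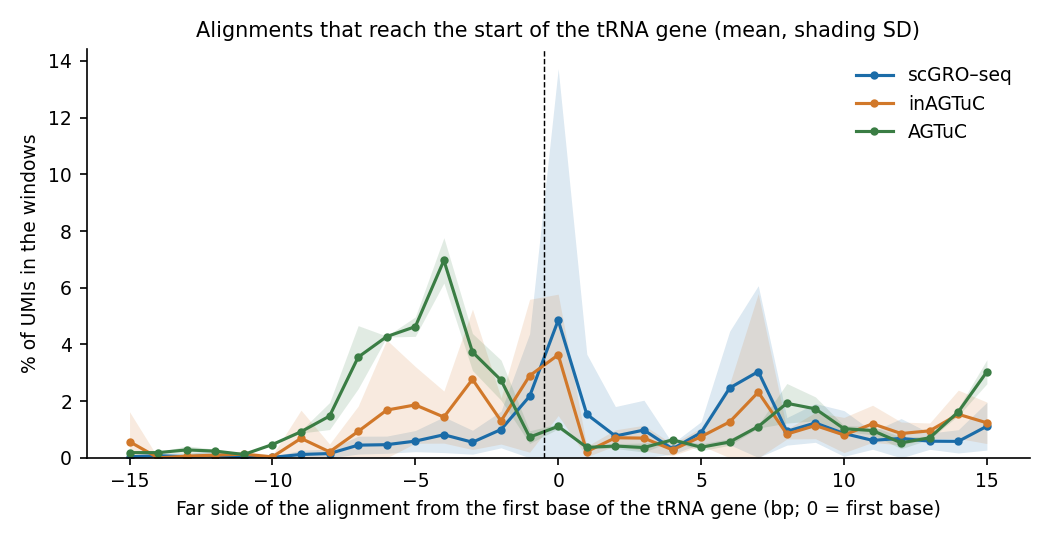
Share of the far (5′) sides of tRNA reads (percent, y axis) by distance from the first annotated base (bp, x axis), as the mean over samples of each assay with the SD as shading. AGTuC peaks at 4 bp before the gene with 6.96%, while the scGRO–seq mean at the first base, 4.85%, falls to 2.07% without the batch Exp211.

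Copies of tRNA genes limit what can be placed. Across the deposited entries the mapping quality was 3 to 44, and reads that fit several copies equally well, which the aligner scores lower, are not among them. Of the 30-base stretches of a gene, a median of 38.9% occurred once in the genome, and 98% of those of the trailer did, while 45 genes had no gene-body stretch that occurs once. Mapping quality was at least 10 for 60.98% to 85.3% of tRNA UMIs in the scGRO–seq batches, for 63.3% to 86.0% in inAGTuC and for 84.6% and 85.2% in AGTuC. The share among all UMIs was higher, at 83.3% to 94.7%, 77.2% to 94.4% and 90.7% to 91.9%. The 238 genes with an identical copy had 29.2 scGRO–seq UMIs per gene and the 165 without had 60.7, and in AGTuC these values were 9.03 and 10.4. In genes with an identical copy 54.4% of scGRO–seq ends lay past the gene, against 29.2% in the others. Levels of single genes with copies are uncertain, and the part of mapping in these values was not tested.

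By amino acid, the arginine, alanine, proline and leucine genes gave the largest shares in scGRO–seq. Arginine tRNA genes, 5.96% of all members, held 17.5% ± 7.18 of the tRNA UMIs (SD, n = 10), from 7.71% in the lowest batch to 34.8% in the highest. In inAGTuC they held 13.7% ± 5.69 (SD, n = 4) and in AGTuC 9.16% ± 0.01 (SD, n = 2). Alanine genes held 11.5% ± 4.12, 10.7% ± 4.90 and 11.9% ± 0.16, proline genes 11.3% ± 6.30, 7.18% ± 3.95 and 3.21% ± 0.49, and leucine genes 10.4% ± 4.19, 12.5% ± 4.33 and 9.21% ± 1.41. Serine genes held most in AGTuC, at 15.5% ± 1.26, with 10.4% ± 2.61 in inAGTuC and 6.36% ± 3.86 in scGRO–seq.

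The largest family was among those with the smallest shares. Reads that fit several copies equally well are not among the entries, and the part of this in the family shares was not tested. Cysteine has 57 genes, 14.1% of the members, and these held 1.73% ± 1.14, 1.93% ± 0.67 and 1.79% ± 0.38 of tRNA UMIs in scGRO–seq, inAGTuC and AGTuC. A UMI was found for 39, 20 and 12 of them. Of the others, phenylalanine lay lowest in all assays, at 0.72% ± 0.39, 0.56% ± 0.67 and 1.59% ± 0.44, except that glutamate was lower in AGTuC, at 1.22% ± 0.24. Valine held 8.55% ± 11.02 in scGRO–seq, with 39.7% in batch Exp211 and at most 7.08% in the other batches. The remaining families, among them aspartate at 5.34% ± 3.14, lysine at 3.86% ± 2.75, methionine at 3.52% ± 1.58 and glutamine at 3.48% ± 2.82 in scGRO–seq, held less.

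None of the 20 families differed between scGRO–seq and inAGTuC after adjustment over the families. The lowest p-values were those of threonine, at 1.93% ± 0.77 in scGRO–seq and 3.46% ± 0.94 in inAGTuC (exact permutation p = 0.00999, adjusted p = 0.1798), histidine, at 1.36% ± 1.27 and 3.38% ± 1.66 (exact permutation p = 0.02298, adjusted p = 0.1798), and glutamate, at 1.27% ± 0.69 and 2.33% ± 0.85 (exact permutation p = 0.02697, adjusted p = 0.1798). All 3 had the higher mean in inAGTuC. AGTuC was not tested here.

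**Figure D5:**
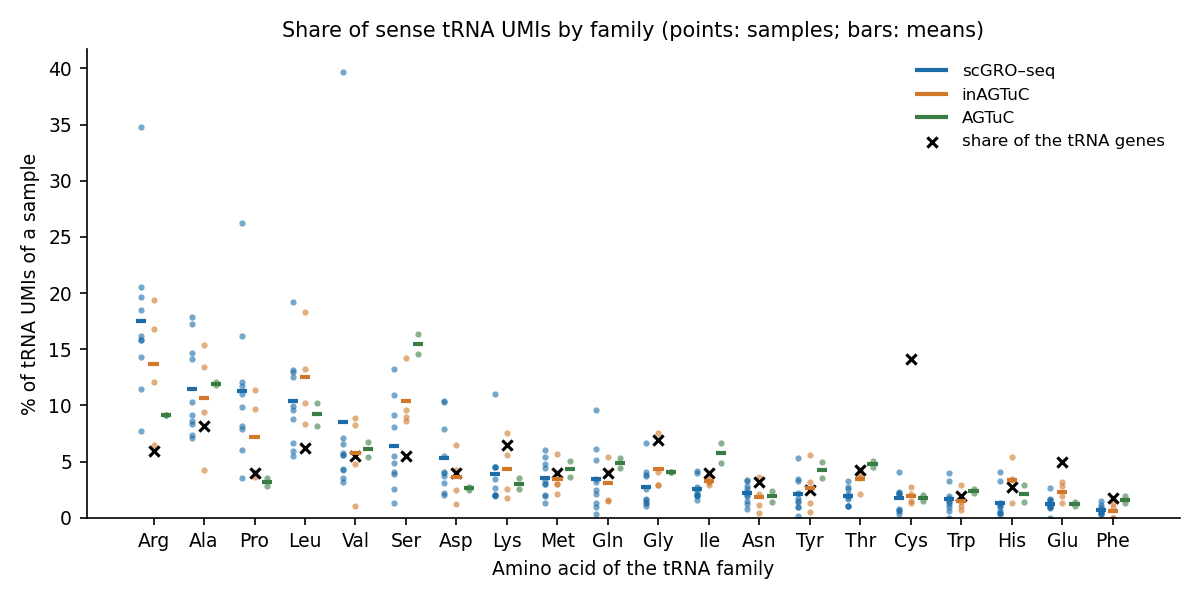
Share of sense tRNA UMIs (percent, y axis) held by each of the 20 amino acid families (x axis), by assay. Points are samples, bars are means over samples and crosses are the family's share of the tRNA genes. Arginine leads in scGRO–seq at 17.5%, serine in AGTuC at 15.5%, and the 57 cysteine genes hold under 2% in each assay.

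Among single genes, levels moved by large factors between batches of one assay. n-TRccg2, an arginine tRNA gene with no identical copy and the most scGRO–seq UMIs (654), had 7.46 to 156 UPM in the 10 batches with a median of 61.98. It had 40.1, 9.74, 0 and 8.25 in the inAGTuC libraries and 1.34 and 1.68 in AGTuC. Both AGTuC values lay below every scGRO–seq batch. Its commonest scGRO–seq end was -6, inside the gene, with 364 UMIs. n-TRccg1, of the same anticodon (chr11:107012866-107012938, plus strand), had 11.6 to 107.8 UPM with a median of 30.8 in scGRO–seq, 22.5, 29.2, 0.68 and 6.87 in inAGTuC and 0.90 and 2.94 in AGTuC, again without overlap of AGTuC and scGRO–seq.

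n-TAtgc10, the alanine gene that carries CCA, had 4.47 to 218 UPM in scGRO–seq with a median of 14.4, and 17.6, 13.4, 0 and 17.2 in inAGTuC. In AGTuC it had 3.14 and 5.89, which overlaps the lowest batch. n-TPtgg8 had 6.19 to 148 with a median of 27.7 in scGRO–seq, 17.6, 84.0, 0 and 4.12 in inAGTuC and 1.34 and 2.52 in AGTuC. n-TPtgg6 shares its anticodon and has 3 identical copies. Only 0.22% of its 461 scGRO–seq ends lay past the gene, 142 of them ended at -17, and it had 4.93 to 80.5 UPM in scGRO–seq, 4.81, 1.22, 3.42 and 0 in inAGTuC and 0.45 and 2.10 in AGTuC.

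n-TScga2, the gene with most AGTuC UMIs, had 0 to 37.6 UPM in scGRO–seq with a median of 22.02, 24.1, 17, 1.37 and 11 in inAGTuC and 14.3 and 15.8 in AGTuC, so that the groups overlapped. n-TSaga1 went the other way from most genes, with 0 to 6.16 UPM in scGRO–seq, 1.60, 0, 0 and 1.37 in inAGTuC and 12.5 and 6.94 in AGTuC. Its AGTuC values lay above every other sample. It did not pass the filter for the test below, and its 61 AGTuC UMIs fell to 20 when UMIs at the same position were counted once. Other genes fell likewise in AGTuC, where a library has 1 barcode, such as n-TScga2 from 107 to 42 and n-TAcgc8 from 55 to 19.

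n-TVcac2, a valine tRNA gene, was high in a single batch. It had 705 UPM in Exp211, and at most 8.26 in each of the other 9 batches. Of its 473 UMIs there, 337 shared 1 end position, 196 came from 1 cell of 44, and 68 remained when UMIs of a cell at the same position were counted once. Exp211 had 1.75 tRNA UMIs per position and barcode, against 1.01 to 1.24 in the other batches. Without n-TVcac2 the tRNA level of Exp211 was 1209 UPM in place of 1914.

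A test across features asked which tRNA genes differ between assays. UMI counts of all genes were fitted together with limma's voom method, and p-values were adjusted by Benjamini-Hochberg over the 12941 features tested. Of the 403 tRNA genes 67 passed the filter on low counts and 336 did not. The filter asks for 24.4 UMIs per 1000000 UMIs counted in features, a smaller total than that of UPM, in 2 samples. scGRO–seq alone took 61 of the 67 past it, inAGTuC alone would have passed 9 and AGTuC none, so the tested genes were selected for high scGRO–seq levels and their counts describe those genes only. The fit scales samples to UMIs in features and not to all UMIs, which moves each difference of AGTuC from scGRO–seq by about -0.80 on the log2 scale against UPM, that of AGTuC from inAGTuC by -0.66 and that of inAGTuC from scGRO–seq by -0.14.

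Between inAGTuC and scGRO–seq no tRNA gene was called, of 67, beside 0% lower and 0% higher of all features. At an unadjusted p under 0.05 there were 23 tRNA genes and 767 features. The median log2 difference was -1.68 over the tested tRNA genes and -0.00 over all features. In the self-test for this comparison the fit called 76.9% of simulated log2 changes of 2 and 8.6% of those of 1. The simulation gave all features the same dispersion and had no batches, so these rates need not hold for the tRNA genes. Between AGTuC and inAGTuC 2 tRNA genes were lower and none higher, beside 22.8% lower and 19.4% higher of all features, so that 2.99% of the tested tRNA genes were called lower, under the background share. The median was -1.25.

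Between AGTuC and scGRO–seq 45 of the 67 tested tRNA genes were lower in AGTuC and none higher, beside 28.1% lower and 27.5% higher of all features. The median log2 difference was -3.22, against 0.01 over all features. Since these genes passed the filter mainly through high scGRO–seq levels, both the count and the median lean towards lower in AGTuC and are given as a description. Scaled to all UMIs, 33 tRNA genes were lower and none higher, beside 17.5% lower and 45.9% higher of all features, with a median of -2.44 against 0.87. No tRNA gene was then called between AGTuC and inAGTuC, with 5 at an unadjusted limma p under 0.05, beside 15.4% lower and 31.3% higher. Without the filter, 379 tRNA genes could be fitted, of which 223 were lower and 7 higher, beside 46% lower and 19.1% higher of all features in that fit, and the median was -2.45 against -0.86 over all features. That fit holds genes with few or no counts, and 126 of the tRNA genes had no AGTuC UMI. Such genes get lower values in deeper libraries, and AGTuC was deeper than most scGRO–seq batches, so the count leans towards lower and is a description. The number called lower fell from 45 to 9 without the AGTuC library Exp125c_c02, beside 10.9% lower and 16.4% higher of all features, and to 28 without Exp125c_c01, beside 19.7% and 19.5%. The median was -3.47 and -2.70 in these fits. With the batch as a random block, which counts the AGTuC libraries as 1 batch, 25 were lower and none higher, beside 20.6% and 21.9% of all features, and no tRNA gene was called between AGTuC and inAGTuC, beside 14.7% lower and 14.5% higher, with 1 at an unadjusted limma p under 0.05.

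The genes called between AGTuC and inAGTuC were n-TRccg3 and n-TLaag7. n-TRccg3, an arginine gene (chr13:21215458-21215530, minus strand), had 14.4, 2.43, 0 and 2.06 UPM in inAGTuC, 0 and 0.21 in AGTuC and 1.49 to 13.9 in scGRO–seq. AGTuC was 22.4-fold lower than inAGTuC by pooled counts of 1 and 14, with a counting interval of 3.41 to 948 (limma log2 difference -3.70 ± 1.16 SE, adjusted p = 0.01658). n-TLaag7, a leucine gene with 2 identical copies (chr13:21170036-21170117, plus strand), had 6.42, 8.52, 2.05 and 2.06 UPM in inAGTuC and 0 and 1.89 in AGTuC (limma log2 difference -2.95 ± 1.09 SE, adjusted p = 0.03682). The inAGTuC values of n-TRccg3 had an SD of 6.56 around a mean of 4.73 UPM, wider than the difference from AGTuC. Each gene passed the filter in 8 of the 16 fits that leave out 1 sample and was not tested in the others. Both calls were lost without either AGTuC library, that of n-TLaag7 also without Exp208_c12, both with the batch as a random block (limma adjusted p = 0.0907 for n-TRccg3 and 0.277 for n-TLaag7), and both when scaled to all UMIs (0.0659 and 0.0982).

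Against scGRO–seq the largest fitted differences were those of n-TLcag2, n-TPcgg3, n-TDgtc16, n-TPtgg2 and n-TEctc9. n-TLcag2, a leucine gene (chr8:38213201-38213283, plus strand), had 7.06 to 134.5 UPM in scGRO–seq and no UMI in AGTuC, which makes AGTuC at least 62.6-fold lower against a floor of 3 counts over the group (limma adjusted p = 0.000423). n-TPtgg2, a proline gene inside Myh8 (chr11:67291139-67291210, plus strand), had 0 to 49.5 UPM and no AGTuC UMI, at least 16.4-fold lower (limma adjusted p = 0.007414). Neither of these genes had a scGRO–seq end past the gene. n-TPcgg3, a proline gene with 2 identical copies (chr11:69040385-69040456, plus strand), had 0 to 129 UPM against 0 and 0.42, a pooled ratio of 82.8 with a counting interval of 22.7 to 687. Of its scGRO–seq ends 227 of 276 lay at +1, where its match to CCA stops. n-TEctc9, a glutamate gene with 8 identical copies (chr10:30811140-30811211, plus strand), had 0 to 53.7 UPM against 0 and 0.21, a pooled ratio of 74.96 with an interval of 13.2 to 2984. n-TDgtc16, an aspartate gene (chr10:91182097-91182168, minus strand), had 12.4 to 142 UPM against 0 and 0.84 (limma log2 difference -6.60 ± 1.72 SE, adjusted p = 0.003756). Without the AGTuC library Exp125c_c02 the calls of n-TPcgg3, n-TDgtc16, n-TPtgg2 and n-TEctc9 were lost (limma adjusted p = 0.0693, 0.0539, 0.126 and 0.0761), and that of n-TPtgg2 also without Exp125c_c01. The call of n-TLcag2 held without each sample in turn, but all 5 genes were tested because of their high scGRO–seq levels.

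Of the genes with most UMIs in an assay, some were called and some were not. The filter passed tRNA genes mainly through high scGRO–seq levels, which favours lower values in AGTuC here too. n-TRccg2 (log2 difference -5.52 ± 1.49 SE), n-TRtct2 (-5.61 ± 1.69), n-TPtgg6 (-5.32 ± 1.22), n-TRccg1 (-4.69 ± 1.18), n-TPtgg8 (-4.64 ± 1.44), n-TAtgc10 (-3.22 ± 1.21) and n-TLtag1 (-2.05 ± 0.71) were lower in AGTuC, with limma adjusted p-values from 0.001521 to 0.0311. Without Exp125c_c02 only n-TPtgg6 of these 7 was still called, and the others had limma adjusted p-values from 0.0694 to 0.191. With the batch as a random block n-TAtgc10 was no longer called (limma adjusted p = 0.0903) and the other 6 were, and scaled to all UMIs neither n-TAtgc10 nor n-TLtag1 was (limma adjusted p = 0.07 and 0.158). n-TRtct2 is an arginine gene of 2 exons (chr3:122292948-122293032, minus strand), and 239 of its 301 scGRO–seq UMIs ended at 0. n-TSgct6 (chr19:5038304-5038385, minus strand), at -1.995 ± 0.91, n-TScga2, at -1.06 ± 0.53, n-TLcaa1 (chr13:21200204-21200308, plus strand), at -0.80 ± 0.62, and n-TAcgc8, at -0.27 ± 0.62, did not pass, with adjusted p from 0.0712 to 0.7364 by limma. Scaled to all UMIs the direction turned for n-TAcgc8, at 0.68 ± 0.70, and n-TLcaa1, at 0.07 ± 0.69, again without a call (limma adjusted p = 0.3935 and 0.9309). The 3 serine and leucine genes among these, n-TScga2, n-TSgct6 and n-TLcaa1, each had 58 or more AGTuC UMIs.

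Most other RNA genes of RNA polymerase III that could be tested were lower in AGTuC than in scGRO–seq, under both scalings. Several had few AGTuC UMIs and passed the filter through the other assays, which favours lower values in AGTuC as it does for the tRNA genes. Of 10 such RNA genes listed, 9 were in the annotation and 7 passed the filter. Summed, the 9 had 367 to 2605 UPM in scGRO–seq, 819 to 3337 in inAGTuC and 75.3 and 80.7 in AGTuC, so that AGTuC lay below both other assays. Against scGRO–seq 6 of 7 were lower in AGTuC and none higher, beside 28.1% lower of all features, and against inAGTuC 4 of 7, beside 22.8%, while none differed between inAGTuC and scGRO–seq. With the batch as a random block Rn7s2 was no longer called against scGRO–seq, nor Rn7s2 and Rpph1 against inAGTuC. The list's median log2 difference was -4.36, -3.35 and 0.21 for these 3 comparisons, and 0.01, -0.00 and -0.00 over all features.

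Rmrp, the RNA of RNase MRP, had 254 to 1313 UPM in scGRO–seq, 1819, 1231, 633 and 3069 in inAGTuC and 19.7 and 21.2 in AGTuC (limma log2 difference of AGTuC from scGRO–seq -5.94 ± 0.61 SE, adjusted p = 2.415e-06). Rpph1, the RNA of RNase P, which cuts the leader off tRNA precursors, had 28.2 to 539, then 294, 271, 131 and 46.7, and 23.3 and 21.9 (-2.85 ± 0.95, adjusted p = 0.01653). Rn7sk, an RNA that holds back the elongation factor P-TEFb, had 28.2 to 489, then 91.4, 155, 22.6 and 170, and 3.58 and 4.63 (-5.22 ± 1.15). In all 3 genes the AGTuC libraries lay below every other sample. Rn7s2, a signal recognition particle RNA, and the Y RNAs Rny1 and Rny3 were lower too, at -5.16 ± 1.76, -3.32 ± 0.98 and -4.36 ± 1.26. The vault RNA gene Vaultrc5 was not, with 2.35 to 69.3 UPM in scGRO–seq and 14.8 and 18.9 in AGTuC (0.27 ± 0.63, limma adjusted p = 0.736). Rnu6 had 6 UMIs in scGRO–seq, 2 in inAGTuC and none in AGTuC, and Rn7s1 had 82, 32 and 2.

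Protein genes of RNA polymerase III, its factors and tRNA processing were looked at in lists. Some of these factors, Gtf3a and the Snapc subunits among them, serve other genes of the polymerase and not the tRNA genes. Of 36 genes for subunits of the polymerase and its factors, 30 were tested. None differed between inAGTuC and scGRO–seq, and 10 were higher and 1 lower in AGTuC than in scGRO–seq, with a median log2 difference of 0.49. Against inAGTuC 10 were higher and none lower in AGTuC, beside 19.4% higher and 22.8% lower of all features. With the batch as a random block 8 were still higher than in scGRO–seq, without Polr2h and Polr3e, beside 21.9% of all features, and 7 than in inAGTuC, beside 14.5%. Polr3d and Polr1c, both subunits of the polymerase, and Gtf3a, the factor TFIIIA of the 5S RNA genes, rose by 1.17 ± 0.31, 2.14 ± 0.35 and 1.51 ± 0.32 on the log2 scale (SE, limma adjusted p from 0.00012 to 0.00381). Brf1, a TFIIIB subunit, Polr3a and Polr3g had 0.47 ± 0.22, 0.09 ± 0.33 and 0.08 ± 0.31 and did not pass. Polr3f fell by 0.94, although its levels were 12.5 ± 4.68 UPM in scGRO–seq and 12.9 ± 0.12 in AGTuC. The fit scales samples to their UMIs in features, with factors of 0.77 to 1.03 in scGRO–seq and 1.29 and 1.32 in AGTuC, and scaled to all UMIs Polr3f had -0.01 ± 0.41 (limma adjusted p = 0.9813). So scaled, 21 of the 30 genes were higher in AGTuC than in scGRO–seq and none lower, with a median of 1.335. Of all features 45.9% were then higher and 17.5% lower. Against inAGTuC 13 of the 30 were then higher and none lower, beside 31.3% and 15.4% of all features.

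Among 18 genes for the processing of tRNA, 14 were tested, 4 were higher and 1 lower in AGTuC than in scGRO–seq, and none differed between the intact-nuclei assays. Tsen54 and Tsen34, subunits of the enzyme that splices tRNA introns, and Rpp14 and Rpp38, protein subunits of RNase P, were higher by 1.49 ± 0.33, 1.12 ± 0.33, 1.08 ± 0.23 and 2.53 ± 0.45 (log2, SE). Trnt1, which adds CCA, was lower by fit, at -1.15 ± 0.41 (limma adjusted p = 0.02443), with 17.1 ± 10.3 UPM in scGRO–seq (SD, n = 10) and 15.4 ± 0.23 in AGTuC (SD, n = 2), and was not called with the batch as a random block or when scaled to all UMIs. Elac2, which is RNase Z and cuts the trailer, had -0.28 ± 0.32 and did not pass. Against scGRO–seq in the main fit, the shares called in both lists stood beside 28.1% lower and 27.5% higher of all features. In that comparison the number higher was near the background. Against inAGTuC 4 of the 14 processing genes were higher in AGTuC and none lower, beside 19.4% higher and 22.8% lower of all features. With the batch as a random block 3 were higher than in inAGTuC, beside 14.5%. Scaled to all UMIs, 7 of the 14 processing genes were higher in AGTuC than in scGRO–seq and none lower, beside 45.9% higher and 17.5% lower of all features. Against inAGTuC 5 were then higher and none lower, beside 31.3% higher and 15.4% lower.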

How the data were processed

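Nascent RNA from mouse embryonic stem cells was measured in 82 deposited libraries. Per the study's methods, the authors clipped adapters with cutadapt, demultiplexed reads, removed ribosomal reads, aligned the rest to mm10 with Bowtie2 and removed duplicates with UMI-tools, with versions not given in the sources used here. The deposited entries give an interval, strand, barcode, UMI and mapping quality, which is the score column, and hold no counts per gene.

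The RNA strand was taken as opposite to the listed strand, and its 3′ end was counted in windows from 20 bp before to 100 bp after each tRNA gene. Cells with at least 1000 UMIs and 750 features, in libraries with at least 24 such cells, were kept. The 10 batches were those named by the study. Molecules found in more than 1 library were left out, and so was an scGRO–seq list that repeats the inAGTuC library Exp261_c16. Samples held 223119 to 4928371 UMIs.

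Assays were compared by exact permutation or sign-flip tests, adjusted by Benjamini-Hochberg over 3 pairs or 20 families, and single features by limma 3.58.1 with voom in R 4.3.3 and trimmed-mean factors of 0.766 to 1.32. Fits with the batch as a random block (duplicateCorrelation) and with samples scaled to all UMIs, and a comparison paired by batch, were added after seeing the data. The plan named another count-based tool. That tool was kept for deposited counts, of which there were none, and limma was run on UMI counts made from the deposited entries. The fit was tested on simulated data, where 4.88% of its calls for inAGTuC against scGRO–seq were false over 12941 features. These data had the same dispersion for all features and no batches, so the rate need not hold for the tRNA genes. Python 3.11.15 with numpy 2.4.6, scipy 1.17.1, pandas 2.3.3 and matplotlib 3.10.9 did the rest.

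The genes named were the 5 with most UMIs of mapping quality of at least 10 in each assay, the 5 largest changes among those called in each comparison, all families and the other RNA polymerase III transcripts annotated, and n-TVcac2 was chosen after its values were seen. There were 35 alternatives planned. Members and lists were chosen with earlier results of these data known. The values of 1 member of a gene list are not reported here.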

Additional observations from a re-analysis of the deposited data

Results flagged for a closer look

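In 14 of 92 groups of samples examined, 1 sample lay far from the others by Dixon's test. The test's rate of about 1 in 20 groups holds for independent, normally spread and unselected values. These groups overlap, such as n-TVcac2 and the valine genes, and genes were chosen partly for high UMI totals. No excess can therefore be read from the count. No test of a cause was made.

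The batch Exp264a stood apart in several values. Its ratio of sense to antisense UMIs was 198.9 and the next highest was 53.5. Its share of lysine tRNA genes was 11.01% beside 4.56%. It also had the highest level of n-TRccg2, at 155.6 UPM beside 85.12, of n-TRtct2, at 113.8 beside 45.53, of n-TDgtc16, at 141.7 beside 66.09, and of n-TEctc9, at 53.67 beside 17.26.

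Exp211 stood apart through valine genes, which held 39.72% of its tRNA UMIs beside 7.081% in the next batch, and n-TVcac2 had 705.2 UPM there beside 8.261. Exp160 had 34.82% of its tRNA UMIs in arginine genes beside 20.52%. Exp156 had 134.5 UPM in n-TLcag2 beside 43.34. Exp208 had 128.7 UPM in n-TPcgg3 beside 41.86, and 49.49 in n-TPtgg2 beside 20.87. In inAGTuC, Exp261_c16 had 62.1% of its ends past the gene beside 20.65%, and Exp208_c12 had 14.44 UPM in n-TRccg3 beside 2.434.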

How the results depend on the processing

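Of 613 values recomputed under alternatives, 551 stayed the same, 21 lost a call, 8 gained one, 26 moved and 7 turned their direction. A tested difference stayed the same if it kept its direction and side of the threshold, called or not. A number of called tRNA genes did so if it stayed within a set factor. Among these are the numbers for inAGTuC against scGRO–seq, which were 0 throughout. The cause was not tested. A second count-based test was not run.

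The mean tRNA level (log2) of inAGTuC and AGTuC minus scGRO–seq was -1.861 and -1.639 over all barcodes (exact permutation, adjusted p = 0.0227), -1.767 and -1.544 with a minimum of 1000 UMIs alone (adjusted p = 0.0455) and -1.604 and -1.445 over all deposited reads (adjusted p = 0.0455). With 3′ ends in the gene body alone, AGTuC minus inAGTuC turned to -0.4793 and AGTuC minus scGRO–seq was -2.024 (adjusted p = 0.0455). With UMIs at the same position counted once, AGTuC minus inAGTuC was -0.2963. All these permutations take libraries of a batch as independent, so their p-values can be too small. Leaving out 1 sample at a time gave -0.7205 (without Exp234_c11) to 0.7603 (without Exp208_c12) for AGTuC minus inAGTuC, -2.148 to -0.667 (without Exp234_c11) for inAGTuC minus scGRO–seq and -1.553 to -1.222 for AGTuC minus scGRO–seq.

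The share of genes with a UMI in inAGTuC was 71.96% at a mapping quality of at least 10 and 81.28% without genes inside a curated gene, and in AGTuC 73.46% without the latter. Ends past the gene were 28.71 points higher in AGTuC than in scGRO–seq at a mapping quality of at least 10 (adjusted p = 0.0455). Of AGTuC ends, 46.93% lay in or before the gene, 31.68% before the run, 14.13% in it and 7.26% after it with runs of at least 5 T, and 37.77% in or before the gene and 23.66% before the run at that mapping quality. There the differences of inAGTuC from scGRO–seq turned for asparagine, lysine, methionine and tryptophan, to 0.1324, -0.4889, 0.2337 and 0.2434 points (adjusted p = 0.837).

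Without the filter on low counts, 130 tRNA genes were lower and 14 higher in AGTuC than in inAGTuC, and 223 lower and 7 higher than in scGRO–seq, of 379 fitted, beside 40.1% lower and 13.1% higher and 46% lower and 19.1% higher of all features. In that fit genes with few or no counts lean towards lower in the deeper AGTuC libraries. At a mapping quality of at least 10, 1 and 26 were lower, of 44 tested, beside 21.9% and 27.2% lower of all features. Leaving out 1 sample at a time gave 0 to 10 lower against inAGTuC and 9 to 51 against scGRO–seq, with 9 without Exp125c_c02, 28 without Exp125c_c01, 10 without Exp234_c11 (against inAGTuC) and 51 without Exp160. Without Exp261_c16, 40 features were higher and 18 lower in inAGTuC than in scGRO–seq, against 0 with it. Few UMIs per gene limit what can be seen, with a median of 3 in inAGTuC and 4 in AGTuC. The replicate numbers pair no samples, but batches tie some libraries. Chosen after seeing the data, a fit with the batch as a random replicate block (13 batches, estimated correlation 0.602) called 0 tRNA genes lower against inAGTuC, with 1 at an unadjusted p under 0.05, and 25 against scGRO–seq. A fit scaled to all UMIs, added likewise, called 0 lower against inAGTuC, with 5 at an unadjusted p under 0.05, and 33 against scGRO–seq. Paired within the 3 batches of both assays, the level differed by -0.842 (log2) and the share of ends past the gene by -8.21 points (exact sign-flip p = 0.25).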

Other observations

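Other scGRO–seq batches, outside the 10 compared, also held tRNA reads. Their levels were 547 UPM in Exp179, 444.5 in Exp256, 1013 in Exp261 and 140.4 in Exp263b. The share of their sense ends past the gene was 45.21%, 76.32%, 69.29% and 51.39%, over 73, 114, 534 and 72 UMIs.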
